A study of Mus musculus with 18 samples.

Results

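ORR1 and MT elements are rodent members of the mammalian apparent LTR retrotransposons (MaLR), a group of old endogenous retroviral elements. The rows described were chosen by name and class from the authors' deposited tables. They are the rows of the class LTR/ERVL-MaLR whose name begins with ORR1, or with MT followed by A, B, C, D or E. This gave 48 of the 1365 rows of each table, of which 29 were ORR1 and 19 MT. Internal parts, named with the ending -int, made up 25 rows, and long terminal repeats (LTRs) 23. The ORR1D-int and MTE-int rows had no LTR row of the same name, which left 23 pairs of an internal part and its LTR.

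The study sequenced poly(A) RNA of mouse cells after inhibition of the chaperone HSP90 with NVP-AUY922. Treated embryonic stem cells (ESCs) received 100 nM, treated bone-marrow-derived macrophages 500 nM and treated neuronal progenitor cells (NPCs) 50 nM, each for 24 h. Untreated cells of the same type were the controls, with 3 libraries in each of the 6 groups. The ESCs, kept in 2i medium, and the NPCs, kept with EGF and FGF, carried the 129S1/CASTEiJ background. The macrophages, grown from bone marrow with M-CSF, carried the BALBC/C57BL6 background. Cell type, dose and, for macrophages, strain therefore differ together. Nothing in the labels says that the 3 libraries of a group came from separate cultures or animals, so the p-values cover only variation among these libraries, and this may be technical.

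MaLR elements have the LTRs of a retrovirus around an internal part that codes for no retroviral protein, and they are thought to have been copied by proteins of the related ERVL elements. Their LTRs can act as promoters: in mice, MT LTRs start many transcripts of the growing oocyte, and ORR1 LTRs start transcripts of the early embryo. An LTR of the MTC group provides the promoter of the oocyte form of the RNA-cutting enzyme Dicer. By and large the letters follow age, with ORR1A and MTA the youngest. Many genomic copies are solitary LTRs, and many lie inside genes, so reads of gene transcripts can also enter these rows.

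Each value below is a log2 fold change of the authors' deposited table for that cell type, with its standard error (SE) after ±. It compares the 3 treated with the 3 untreated libraries and sums the reads of all copies that the row covers. The tables used here hold no value per library and do not name the group in the numerator. Values are therefore described by their sign, as the positive or the negative side, without assigning a sign to treated cells, and a sign may stand for different groups in different tables. A row is called when its adjusted p in the authors' deposited table is under 0.05. All 48 rows carried an adjusted p in all 3 tables. Library depth was not found in the labels or tables. The base mean, the mean of normalised reads over the libraries, had a median of 3701 in ESCs, 2129 in macrophages and 2439 in NPCs over the 48 rows. Over all tested rows the median was 225, 101 and 128, in the same order. The median SE over the 48 rows was 0.07, 0.07 and 0.15 on the log2 scale in that order, against 0.14, 0.17 and 0.27 over all tested rows. Values of rows with few reads may be drawn towards 0, which among the 48 bears most on ORR1G-int, at base means of 20.1, 5.49 and 8.97.

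**Figure D1:**
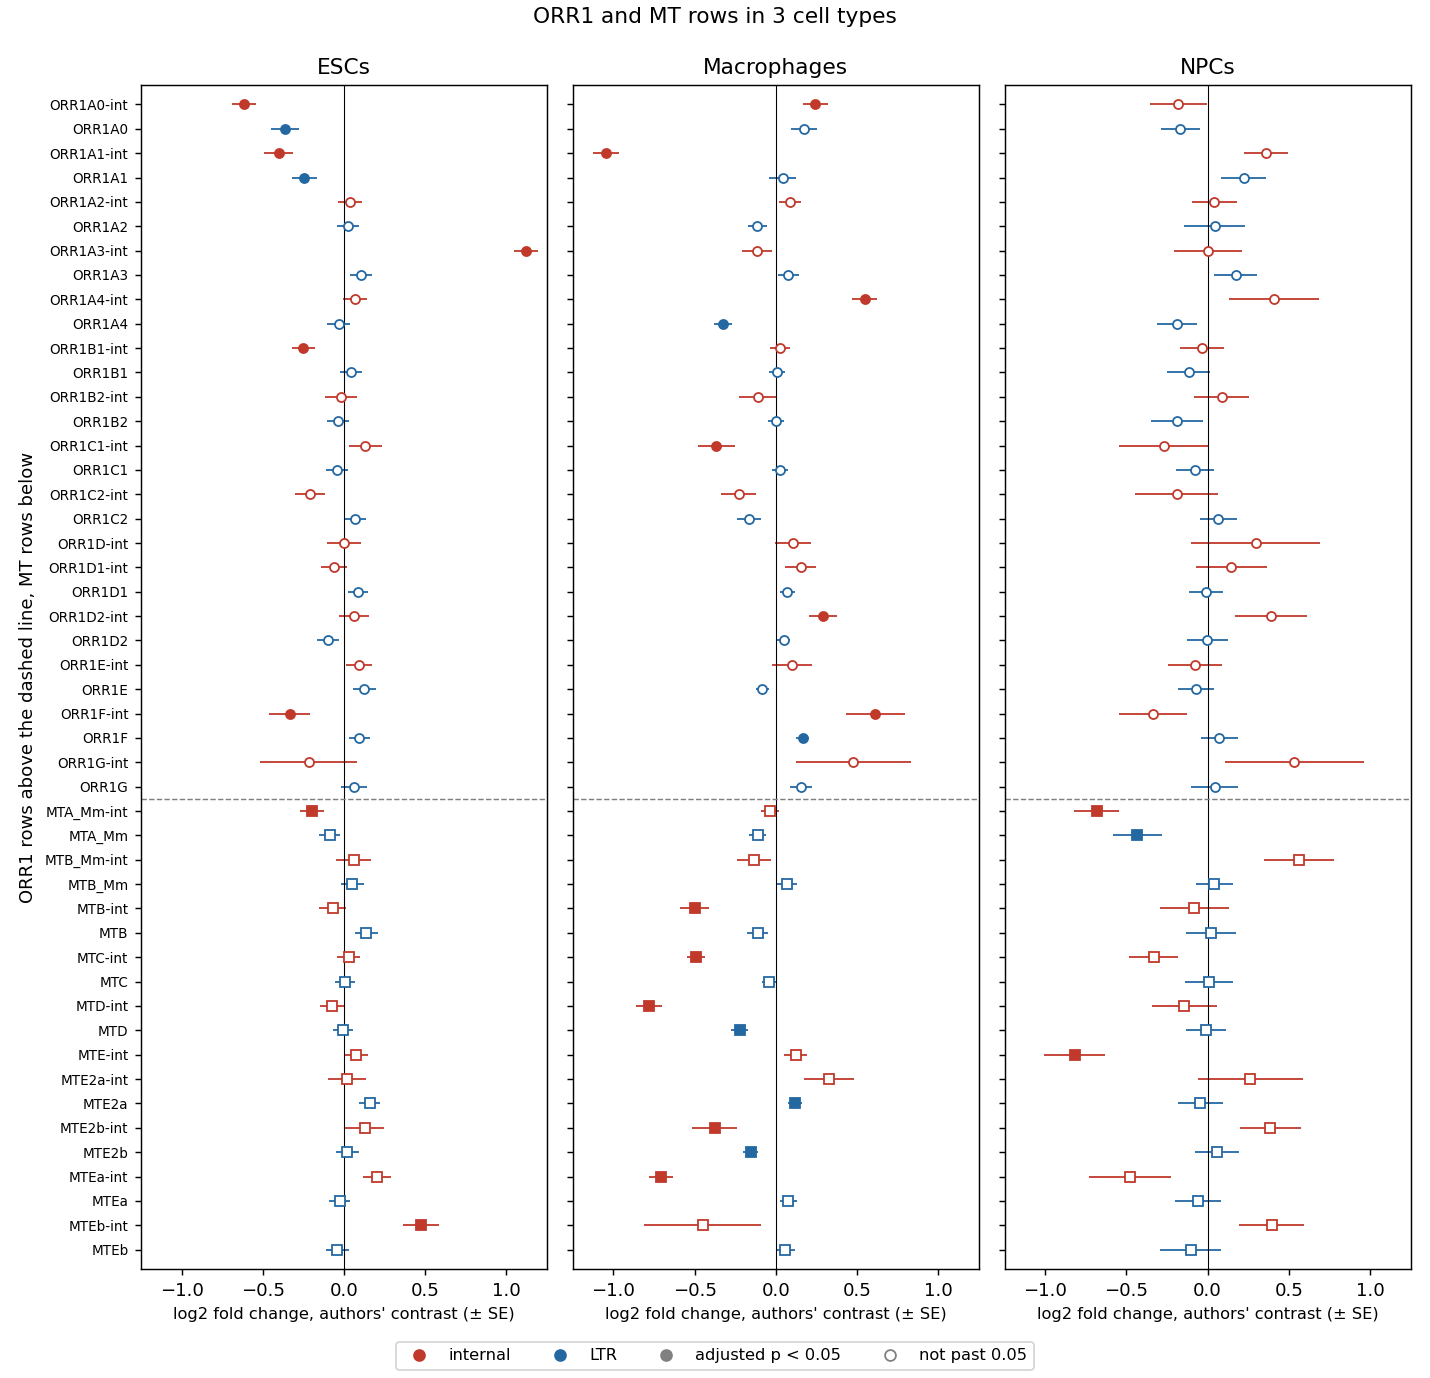
Log2 fold change of the authors' contrast (x axis, ± SE) for each of the 48 rows (y axis), with ORR1 as circles and MT as squares, internal parts red and LTRs blue, and filled symbols for an adjusted p under 0.05. The called ORR1A rows of ESCs and the called internal MT rows on the negative side in macrophages lie away from 0. In NPCs the 3 called MT rows lie on the negative side. Uncalled NPC rows such as MTB_Mm-int, at 0.56 ± 0.22, lie farther from 0 than the called MTA_Mm, at -0.43 ± 0.15.

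In ESCs 5 of the 9 called rows were young ORR1A elements, and they lay on both sides. ORR1A3-int, the internal part of an ORR1A element, stood at 1.12 ± 0.07 in the authors' deposited table, which is 2.18-fold between the groups, at an adjusted p of 7.84e-49. ORR1A0-int, from the youngest ORR1 group, lay on the other side at -0.62 ± 0.08 in the authors' deposited table, or 1.53-fold, at an adjusted p of 7.60e-15. Of the 48 rows 2 were called on the positive and 7 on the negative side, together 18.8%, against 22.2% of all 1132 rows tested in ESCs. The background was 10.2% on the positive and 12.0% on the negative side. The median of the 48 rows was 0.02, and that of all tested rows 0.0019. The share called among ORR1 and MT rows was thus no higher than the background in this cell type. The 48 rows had more reads and a smaller median SE than all tested rows, so the shares were taken at unlike precision. By size, the median absolute value was 0.07 for the 48 rows and 0.18 for all tested rows.

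ORR1A0 and ORR1A1 were the pairs in which both the internal part and the LTR were called in ESCs, in each case on the negative side. ORR1A1-int stood at -0.40 ± 0.09 and its LTR ORR1A1 at -0.24 ± 0.08 in the authors' deposited table, at adjusted p of 4.86e-05 and 0.00904. The LTR ORR1A0 stood at -0.36 ± 0.09 beside the -0.62 of its internal part in the authors' deposited table. ORR1A3 showed no such pairing: its LTR stood at 0.10 ± 0.07 in the authors' deposited table, with an adjusted p of 0.34. ORR1A4-int and ORR1A4 stood at 0.07 ± 0.08 and -0.03 ± 0.07 in the authors' deposited table and were not called. Neither ORR1A2 row was called.

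The remaining 4 called ESC rows were all internal parts. ORR1B1-int stood at -0.25 ± 0.07 in the authors' deposited table (adjusted p 0.00246), with its LTR ORR1B1 at 0.04 ± 0.07. ORR1F-int, at a base mean of 295, stood at -0.34 ± 0.13 in the authors' deposited table with an adjusted p of 0.0434. Its adjusted p was 0.0512 when p-values were adjusted over every row that carries one, so that this call depends on which rows are counted. Of the MT rows, MTEb-int stood at 0.47 ± 0.11 in the authors' deposited table (1.39-fold, adjusted p 2.51e-04) and its LTR MTEb at -0.04 ± 0.07. MTA_Mm-int, the internal part of the youngest MT group and the row with the most reads among the 48 at a base mean of 23924, stood at -0.20 ± 0.07 in the authors' deposited table with an adjusted p of 0.0379. The LTR MTA_Mm stood at -0.09 ± 0.06 in the authors' deposited table and was not called. None of the 9 MT LTRs was called by the authors' test, although 1 had an unadjusted p under 0.05: MTE2a stood at 0.16 ± 0.06 in the authors' deposited table, with an adjusted p of 0.0568. When the adjustment was limited to base means of 50 or more, its adjusted p was 0.0488 and the row was called.

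In macrophages the called internal parts of MT elements all stood on the negative side, and the largest difference belonged to an ORR1A internal part. ORR1A1-int stood at -1.05 ± 0.08 in the authors' deposited table, or 2.06-fold, at an adjusted p of 3.06e-39. MTD-int and MTEa-int came next at -0.78 ± 0.08 and -0.71 ± 0.07 in the authors' deposited table, or 1.72-fold and 1.63-fold. MTB-int stood at -0.50 ± 0.09 and MTC-int at -0.49 ± 0.06 in the authors' deposited table, at adjusted p of 4.74e-07 and 6.92e-16. Of the 48 rows 6 were called on the positive and 10 on the negative side, together 33.3%, against 25.8% of all 1255 rows tested. The background was 13.3% on the positive and 12.5% on the negative side. Their median was 0.02, and that of all tested rows -0.0129. Their median absolute value was 0.13, below the 0.22 of all tested rows. The higher share called thus went with smaller values, at a smaller median SE.

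Within the MT rows of macrophages, 5 of the 10 internal parts (50%) were called, all on the negative side. The fifth was MTE2b-int at -0.38 ± 0.14 in the authors' deposited table, with an adjusted p of 0.0310. Among the 100 other tested internal rows of the LTR classes 41.0% were called there, 17 on the positive and 24 on the negative side. Over all tested rows the share was 25.8%. The median of the 10 internal MT rows was -0.41 and 8 of them had a negative value. MTE-int and MTE2a-int, the 2 with a positive value, stood at 0.12 ± 0.07 and 0.33 ± 0.15 in the authors' deposited table and were not called. MTA_Mm-int stood at -0.04 ± 0.06 in the authors' deposited table and was not called. MT-int, an internal part with no letter that the naming rule leaves out and that was added after its value was seen, stood at -0.44 ± 0.10 there, in the authors' deposited table. In ESCs and NPCs MT-int stood at -0.03 ± 0.11 and -0.27 ± 0.19 in the authors' deposited table and was not called. Among the 9 MT LTRs in macrophages, MTD and MTE2b were called on the negative side, at -0.22 ± 0.05 and -0.15 ± 0.05 in the authors' deposited table. MTE2a was called on the positive side, at 0.12 ± 0.04 in the authors' deposited table with an adjusted p of 0.0357. MTD is the row with the most reads among the 48 in macrophages, at a base mean of 24387.

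MTEb-int stood apart in precision, not in level. At a base mean of 645 its SE in macrophages was 0.36 in the authors' deposited table, beside a value of -0.45. The 120 other tested rows within 1.5 times its base mean had a median SE of 0.0855, and none had a larger SE. Its SE was thus 4.22 times the median of like rows, the only such ratio above 2 among the 48 rows in any table. The SE rests on the spread among libraries, and how each library contributes to it cannot be read from the tables used here. The plot of SE against base mean shows the row at the height of rows with almost no reads.

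**Figure D2:**
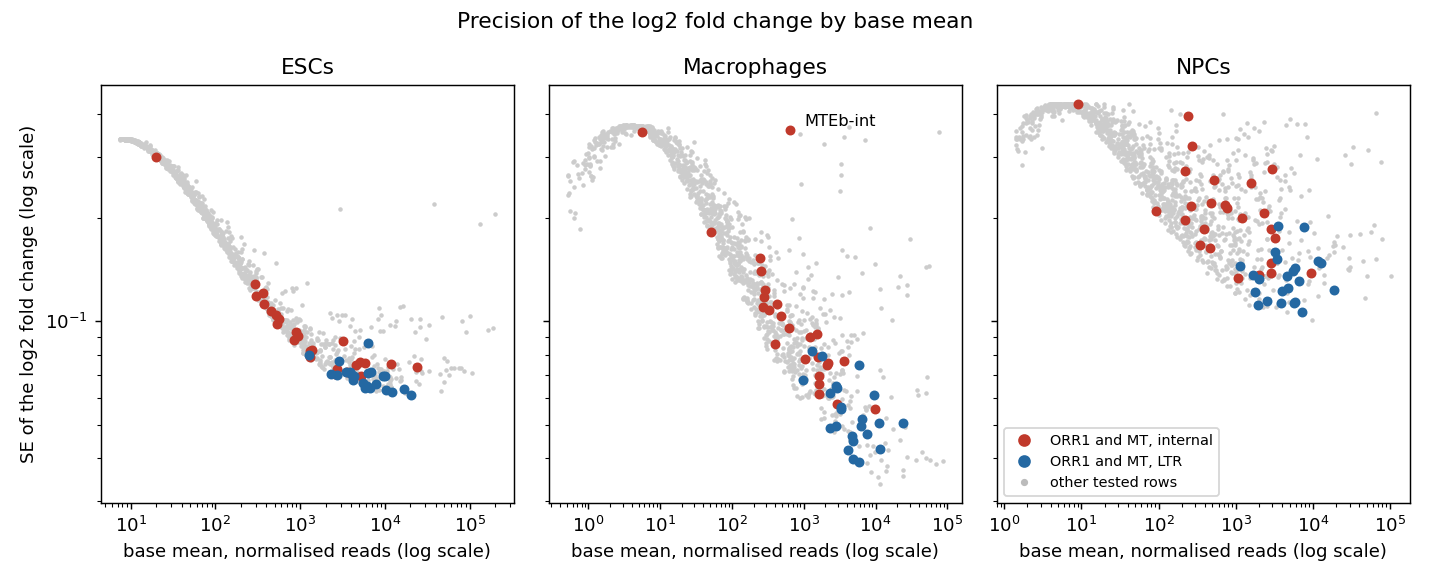
Standard error of the log2 fold change (y axis, log scale) against base mean in normalised reads (x axis, log scale) for all tested rows of each table, with internal ORR1 and MT rows red, LTR rows blue and other rows grey. MTEb-int in macrophages, at an SE of 0.36 and a base mean of 645, lies above the band of like rows.

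ORR1 rows in macrophages were called on both sides. ORR1A4 was split: its internal part ORR1A4-int stood at 0.55 ± 0.08 and its LTR at -0.32 ± 0.06 in the authors' deposited table, at adjusted p of 1.54e-11 and 9.33e-08. ORR1F-int, at a base mean of only 50.7, stood at 0.61 ± 0.18 and its LTR ORR1F at 0.17 ± 0.04 in the authors' deposited table, both called. ORR1A0-int stood at 0.24 ± 0.08 in the authors' deposited table (adjusted p 0.00886), with ORR1A0 at 0.17 ± 0.08 and not called. ORR1D2-int stood at 0.29 ± 0.09 in the authors' deposited table with an adjusted p of 0.00414, and its LTR ORR1D2 at 0.05 ± 0.04. ORR1A3-int, the row with the largest value in ESCs, stood at -0.12 ± 0.09 in macrophages in the authors' deposited table and was not called. The LTR ORR1A1, whose internal part had the largest difference, stood at 0.04 ± 0.08 in the authors' deposited table with an adjusted p of 0.78.

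In NPCs the called rows were the MTA pair and MTE-int, all on the negative side. MTE-int, an internal part with no LTR row of the same name, stood at -0.82 ± 0.19 in the authors' deposited table, or 1.76-fold, at an adjusted p of 2.81e-04. MTA_Mm-int stood at -0.68 ± 0.14 in the authors' deposited table (1.61-fold, adjusted p 2.66e-05). Its LTR MTA_Mm stood at -0.43 ± 0.15 in the authors' deposited table, with an adjusted p of 0.0361. These 3 rows are 6.25% of the 48, against 11.8% of all 1249 rows tested, with a background of 4.96% on the positive and 6.81% on the negative side. None of the 29 ORR1 rows was called by the authors' Wald test, and 1 had an unadjusted p under 0.05. The median of the 48 rows was -0.0055, and that of all tested rows 0.0009. Their median absolute values were 0.14 and 0.24.

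Precision limits what the NPC table can show. Of the 48 rows 8 had an unadjusted p under 0.05, of which 7 were MT rows. The ORR1 row among them was ORR1A1-int, which stood at 0.36 ± 0.13 in the authors' deposited table, with an adjusted p of 0.0568. When the adjustment was limited to base means of 50 or more, this adjusted p was 0.0451 and the row was called. With a median SE of 0.15 over the 48 rows, against 0.07 in each of the other tables, differences of the size called in ESCs for ORR1A1 or ORR1B1-int were not detectable here. The values of ORR1A0-int and ORR1A0 in NPCs were -0.18 ± 0.18 and -0.17 ± 0.12 in the authors' deposited table, and those of MTD-int and MTC-int were -0.14 ± 0.20 and -0.33 ± 0.15.

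The ORR1 and MT families can be set side by side by their counts, which are descriptions, since rows of one table share libraries and may share reads. In ESCs 7 of 29 ORR1 rows were called (24.1%) and 2 of 19 MT rows (10.5%), with medians of -0.0026 and 0.02. In macrophages 8 ORR1 rows (27.6%) and 8 MT rows (42.1%) were called. ORR1 had 5 on the positive and 3 on the negative side there, and MT 1 and 7. The medians were 0.05 for ORR1 and -0.11 for MT. In NPCs 0 ORR1 rows and 3 MT rows (15.8%) were called. Over all tested rows the shares were 22.2% in ESCs, 25.8% in macrophages and 11.8% in NPCs, so that the ORR1 shares of ESCs and macrophages were near the background. All tested rows had a larger median SE, so these shares were taken at unlike precision. Over the 3 tables, 12 of 29 ORR1 rows (41.4%) and 12 of 19 MT rows (63.2%) were called at least once, against 46.8% of the 1121 rows tested in all 3 tables.

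By letter, ORR1A held 5 of the 7 ORR1 calls in ESCs and 4 of the 8 in macrophages. These are 50% and 40% of its 10 rows, beside 22.2% and 25.8% of all tested rows, and 0 were called in NPCs. The groups are small, and no test of the letters was run. The 4 ORR1B, 4 ORR1C, 5 ORR1D, 2 ORR1E and 2 ORR1G rows had 1 call in ESCs and 2 in macrophages together. Both ORR1F rows were called in macrophages and 1 in ESCs. Among MT letters, MTA had 1 call in ESCs, 0 in macrophages and both rows in NPCs, MTB 0, 1 and 0, MTC 0, 1 and 0, MTD 0, 2 and 0, and MTE, with 9 rows, 1, 4 and 1. ORR1A rows lay between -0.62 and 1.12 in ESCs, while the other ORR1 rows lay between -0.34 and 0.13. In macrophages ORR1A rows lay between -1.05 and 0.55, and ORR1F-int stood higher, at 0.61. In NPCs ORR1A rows lay between -0.19 and 0.41, inside the values of ORR1F-int at -0.34 and ORR1G-int at 0.53. The ORR1A rows had a median base mean of 5442 in ESCs, against 4229 over all ORR1 rows.

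**Figure D3:**
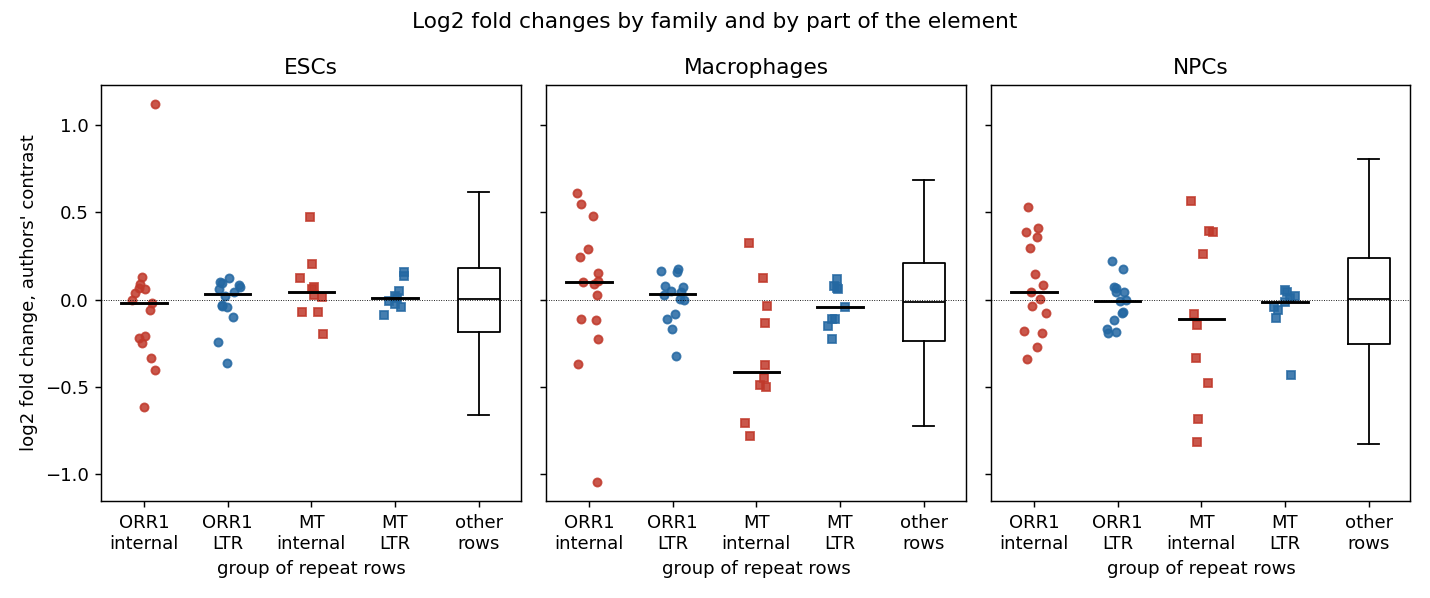
Log2 fold change of the authors' contrast (y axis) for ORR1 internal, ORR1 LTR, MT internal and MT LTR rows, each point a row and the bar the median, beside a box of all other tested rows with whiskers at the 5th and 95th percentiles. LTR points lie between -0.43 and 0.22 in all 3 panels, and the internal MT rows of macrophages have a median of -0.41.

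Internal parts varied more than LTRs in every table. Values of the 25 internal rows lay between -0.62 and 1.12 in ESCs, -1.05 and 0.61 in macrophages and -0.82 and 0.56 in NPCs. Those of the 23 LTR rows lay between -0.36 and 0.16, -0.32 and 0.17, and -0.43 and 0.22, in the same order. The median absolute value was 0.09 for internal and 0.06 for LTR rows in ESCs, 0.29 and 0.08 in macrophages, and 0.30 and 0.07 in NPCs. Among the other rows of the LTR classes it was 0.28 and 0.21, 0.30 and 0.25, and 0.32 and 0.25, in the same order. Internal ORR1 and MT rows had fewer reads, with a median base mean of 1295 against 6091 for LTR rows in ESCs. These medians were 645 and 4674 in macrophages, and 730 and 4567 in NPCs. The median absolute values in ESCs were close to the median SEs of 0.09 and 0.07. The part played by reads and SE was not tested. The medians with sign were close to 0: 0.02 and 0.02 in ESCs, -0.04 and 0.02 in macrophages, 0.0025 and -0.0102 in NPCs.

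Internal rows were also called more often, although their SE was larger. In ESCs 7 of 25 internal rows (28%) and 2 of 23 LTR rows (8.70%) were called, in macrophages 11 (44%) and 5 (21.7%), and in NPCs 2 (8%) and 1 (4.35%). The median SE was 0.09 for internal and 0.07 for LTR rows in ESCs, 0.09 and 0.05 in macrophages, and 0.21 and 0.13 in NPCs. Among all other rows of the LTR classes pooled, 43.2% of internal and 27.8% of LTR rows were called in ESCs, 41.0% and 30.5% in macrophages, and 21.9% and 13.6% in NPCs. The MLT1 group, older MaLR elements that are among these other rows, did not keep one order. It was chosen as the MaLR rows whose name begins with MLT1 or MST. In ESCs 4 of its 18 tested internal rows and 1 of its 30 LTR rows were called, but in macrophages 3 of 23 and 12 of 30, and in NPCs 2 of 19 and 3 of 30. No test of a difference in these shares was run.

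Within the 23 pairs, the internal part had the larger absolute value in 17 pairs in ESCs, 21 in macrophages and 19 in NPCs. These are 73.9%, 91.3% and 82.6% of the 23 pairs, against 77.1%, 68.3% and 66.7% of the other internal and LTR pairs of the tables. The part played by the larger SE of internal rows was not tested. Both rows of a pair lay on the same side in 12, 13 and 13 of 23 pairs. The intervals of ± 1.96 SE around the 2 values did not overlap in 4 pairs in ESCs (17.4%) and 8 in macrophages (34.8%), and overlapped in all 23 in NPCs. Over the other internal and LTR pairs the shares apart were 25.7% in ESCs, 17.1% in macrophages and 11.1% in NPCs. Over the pairs of all classes, these 23 included, they were 22.4%, 23.4% and 6.78%. This is a description: rows of a table share libraries, and the covariance of their errors is not known.

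The pairs apart in ESCs were ORR1A3, MTEb, ORR1B1 and ORR1F. For ORR1A3 the internal part exceeded the LTR by 1.02 on the log2 scale, for MTEb by 0.52. ORR1B1 and ORR1F had the internal part lower, with differences of -0.29 and -0.43. In macrophages the internal part lay lower in 6 pairs: ORR1A1 at a difference of -1.09, MTEa at -0.79, MTD at -0.56, MTC at -0.45, MTB at -0.39 and ORR1C1, which was outside the naming rule and is named after its value was seen, at -0.39. It lay higher in ORR1A4, by 0.87, and ORR1F, by 0.45. All 4 of the MT pairs apart in macrophages had the internal part on the lower side.

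**Figure D4:**
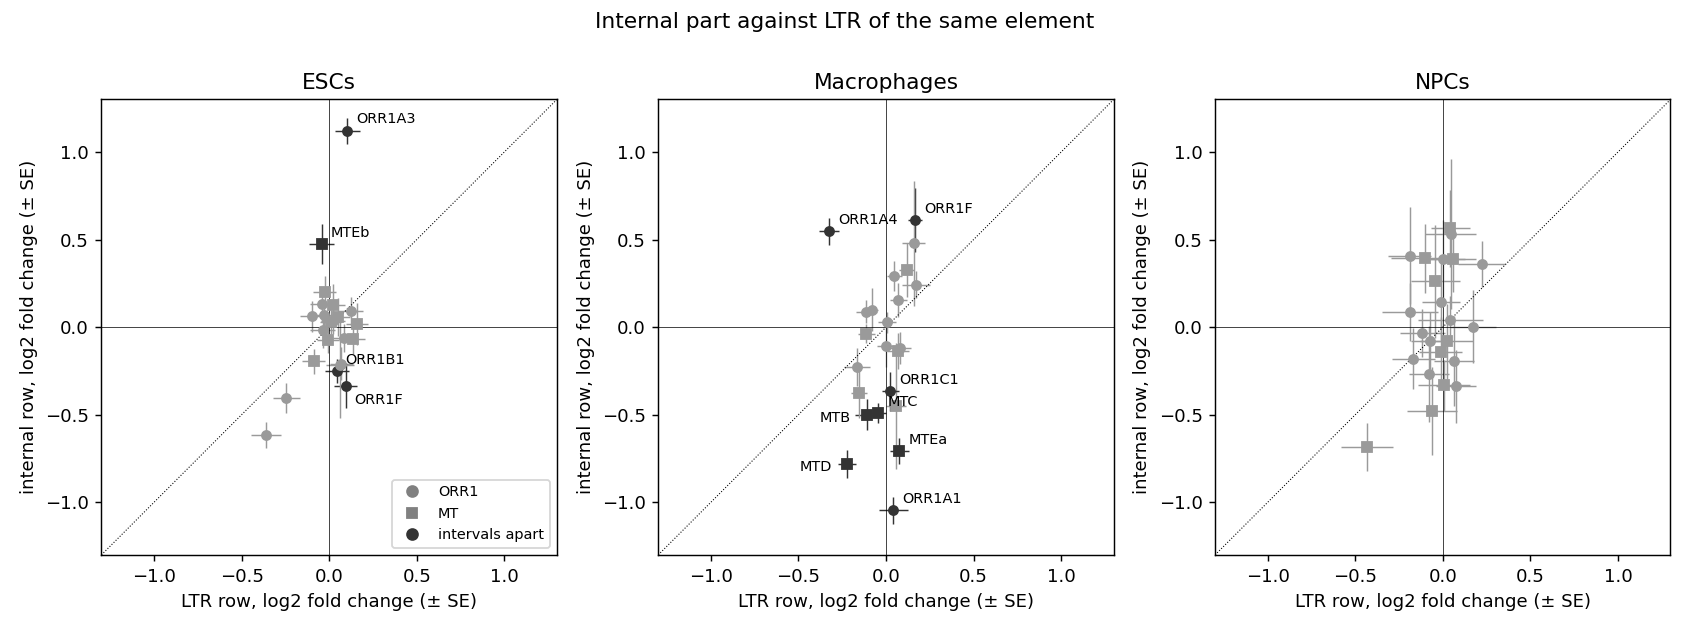
Log2 fold change of the internal row (y axis, ± SE) against that of the LTR row of the same element (x axis, ± SE) for the 23 pairs, with ORR1 as circles, MT as squares, and dark, named points where the intervals of ± 1.96 SE did not overlap. Points spread along the y axis and stay near 0 on the x axis; ORR1A3 in ESCs and ORR1A1 in macrophages lie farthest from the diagonal.

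Of the 48 rows 24 were called in no table, 20 in 1, 4 in 2 and 0 in all 3. The shares of 8.33% in 2 tables and 0% in all 3 stand beside 10.4% and 2.94% of the 1121 rows tested in all 3 tables. The 4 called in a pair of tables were all internal parts. ORR1A1-int was on the negative side in ESCs and macrophages, and MTA_Mm-int on the negative side in ESCs and NPCs. ORR1A0-int and ORR1F-int were negative in ESCs and positive in macrophages. Across the 48 rows, Spearman's rho of the log2 fold changes was -0.12 between ESCs and macrophages, 0.20 between ESCs and NPCs and 0.18 between NPCs and macrophages. Over all rows tested in both tables it was 0.14, 0.10 and 0.20. These are descriptions over rows, which share libraries within a table. The tables may not share an orientation. The sign of each rho, and whether a row kept its side between tables, would turn with it. The 17 rows outside the naming rule lay between -0.22 and 0.13 in ESCs, -0.37 and 0.48 in macrophages and -0.27 and 0.56 in NPCs, and 1 of them, ORR1C1-int in macrophages, was called.

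The difference between cell types was tested for each row as the difference of the authors' log2 fold changes over the root of their summed squared SE, with a two-sided normal p adjusted over all rows tested in both tables. No library enters 2 tables. Since the tables may not share an orientation, each test was also made with the sign of 1 table turned. Between ESCs and macrophages 18 of the 48 rows differed at an adjusted p under 0.05, against 23.7% of all rows, and 10 did so with either sign, against 11.8%. Between ESCs and NPCs 5 differed, against a background of 12.6%, and 3 with either sign, against 6.04%. Between NPCs and macrophages 7 differed, against 12.4%, and 4 with either sign, against 6.06%. The counts that involve NPCs and hold with either sign were thus near the background. Of these 18, 5 and 7 rows, 12, 4 and 7 were internal parts.

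Rows that differed with either sign included the leading rows of each cell type, but the size of a difference depends on the orientation. Leading rows were picked for a large value in a cell type compared here, which by itself favours a difference. Each size is given first with the tables taken as oriented alike and then with the sign of 1 table turned, and its SE is the same in both. ORR1A3-int differed by 1.24 or 1.004 (SE 0.12) between ESCs and macrophages. It differed by 1.12 in both orientations (SE 0.22) between ESCs and NPCs. ORR1A1-int differed by 1.41 or 0.69 (SE 0.16) between NPCs and macrophages. MTE-int differed by 0.89 or 0.74 (SE 0.20) between ESCs and NPCs and by 0.94 or 0.70 (SE 0.20) between NPCs and macrophages. Between ESCs and macrophages MTEa-int differed by 0.91 or 0.51 (SE 0.12) and MTD-int by 0.71 or 0.85 (SE 0.11). The difference of ORR1F-int between ESCs and macrophages, 0.95 ± 0.22, passed only with the tables taken as oriented alike. With the sign of 1 table turned its adjusted p was 0.38.

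**Figure D5:**
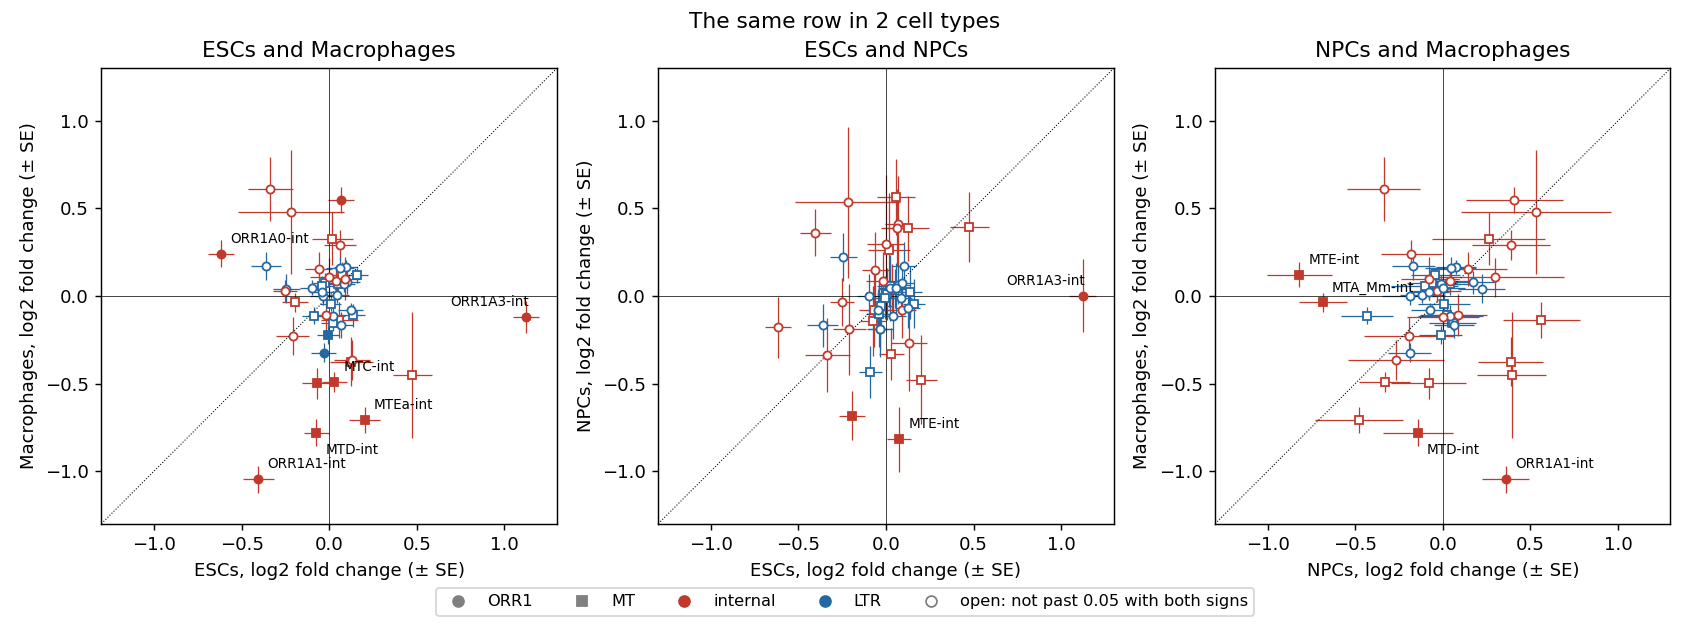
Log2 fold change of each of the 48 rows in one cell type (x axis, ± SE) against another (y axis, ± SE), with internal parts red, LTRs blue, ORR1 as circles and MT as squares. Filled symbols mark rows that differed at an adjusted p under 0.05 with either sign, and names are given where the difference exceeded 0.5 with the tables taken as oriented alike, as for ORR1A3-int in ESCs against macrophages at 1.24.

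Among related elements, calls on the positive side in ESCs numbered 2 of 48 ORR1 and MT rows and 6 of 8 rows of MERVL and MT2, ERVL elements whose kind is thought to have supplied the proteins that copied MaLR elements. The largest values on that side were 1.12 ± 0.07 for ORR1A3-int and 2.95 ± 0.08 for MERVL-int in the authors' deposited table. In macrophages 3 MERVL and MT2 rows were called on the positive and 2 on the negative side, and in NPCs 1 on the negative side, which was MERVL_2A-int at -0.76 ± 0.17 in the authors' deposited table. Older MaLR elements of the MLT1 group, 60 rows, had 48 tested rows in ESCs with 2 called positive and 3 negative, 53 in macrophages with 9 and 6, and 49 in NPCs with 1 and 4. Of the tested MLT1 rows 10.4% were called in ESCs, 28.3% in macrophages and 10.2% in NPCs. Of the MERVL and MT2 rows these shares were 75%, 62.5% and 12.5%, in the same order. Over all tested rows they were 22.2%, 25.8% and 11.8%, with 10.2% on the positive side in ESCs. The median values of the MLT1 rows were -0.0084, -0.0022 and -0.05. The median base mean of the tested MLT1 rows was 202, 132 and 197, far below that of ORR1 and MT rows, so that calls in the 2 groups were made at unlike precision.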

How the data were processed

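Poly(A) RNA was sequenced from 18 mouse libraries, 3 in each of 6 groups. The submitters' processing notes name the build mm10 and the tools TopHat2 2.0.13 and Bowtie2, featureCounts, Trim Galore, deepTools and DESeq2, without saying what each did. Treatment of reads that fit several copies, and use of strand in counting, are not given in the sources used here, so near-identical rows and an LTR and its internal part can share reads.

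Per the file headers, each of the 3 deposited tables is a DESeq2 result. The base mean is a signal the authors computed, the mean of counts divided by size factors. The authors also deposited the log2 fold change and its SE, the Wald score, the p-value and the adjusted p-value. The score equalled value over SE, and adjusted p-values equalled a Benjamini-Hochberg adjustment, in all 1132, 1255 and 1249 tested rows within a relative difference of 1e-06. Fold changes of rows with few reads appear shrunken towards 0; no source read here says so. No count model could be run, since the tables hold comparisons.

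Members, lists and tests were chosen with earlier results of these data known. Named rows are, per cell type, the 6 called rows of largest absolute value on each side, rows called in all 3 tables, their partners, and the ORR1A0 and MTA_Mm rows, 31 in all. Differences between cell types were computed with SciPy 1.17.1 and pandas 2.3.3 in Python, and the test was tried on simulated data first. The simulation drew independent normal errors with the deposited SEs. It therefore checked the computation, and not whether those assumptions hold for these rows. Alternatives were a threshold of 0.01, adjustment over every row with a p, a base mean of at least 50, centring on the median, leaving out the row of largest absolute value, and a turned sign.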

Additional observations from a re-analysis of the deposited data

Results flagged for a closer look

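Rows named in the report whose contrast differed between 2 cell types, by the test of the difference itself and with either sign of one table, were set apart. Sizes are on the log2 scale. Each is given first with the tables taken as oriented alike and then with the sign of one table turned, since the orientation is not stated, and their order depends on it. Between ESCs and macrophages, internal parts were 8 of the 10 such rows, and they are 25 of all 48 rows. Over all rows tested in both cell types 11.8% differed with either sign. Rows were named mainly for a large called value in a cell type, and no test of the share of internal parts was run. ORR1A3-int differed by 1.24 or 1.004, MTEa-int by 0.91 or 0.51, ORR1A0-int by 0.86 or 0.38 and MTD-int by 0.71 or 0.85. ORR1A1-int differed by 0.64 or 1.45, MTC-int by 0.52 or 0.46, ORR1A4-int by 0.48 or 0.62 and MTB-int by 0.43 or 0.57. The LTRs among them were ORR1A4, at 0.29 or 0.36, and MTD, at 0.22 or 0.23. Between ESCs and NPCs, ORR1A3-int differed by 1.12 in both orientations, MTE-int by 0.89 or 0.74 and MTA_Mm-int by 0.49 or 0.88. Between NPCs and macrophages, ORR1A1-int differed by 1.41 or 0.69, MTE-int by 0.94 or 0.70, MTA_Mm-int by 0.65 or 0.72 and MTD-int by 0.64 or 0.92. Dose, and for macrophages strain, differ together with cell type and cannot be told apart from it.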

How the results depend on the processing

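Of the 12 medians and 9 counts tested under the alternatives, every median moved by less than the median SE of its rows. This allowance is wide beside medians close to 0, so it does not show that their signs hold. With a base mean of at least 50, the ORR1 median in ESCs went from -0.0026 to 0.0106. That of internal rows in NPCs went from 0.0025 to -0.0158. Among the counts, the positive calls in NPCs were 0 as reported and 1 with a base mean of at least 50. Rows that differed between ESCs and NPCs were 5 as reported, 8 with the sign of one table turned and 3 at a threshold of 0.01. Those between NPCs and macrophages were 7 as reported and 4 at 0.01. The other counts stayed within 1.5 times, and no named value changed sign when centred on the median. With a base mean of at least 50, MTE2a in ESCs and ORR1A1-int in NPCs gained a call, at adjusted p of 0.0488 and 0.0451. At 0.01, 5 of the named calls were lost: MTA_Mm-int and ORR1F-int in ESCs, MTE2a and MTE2b-int in macrophages, and MTA_Mm in NPCs.

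No paired analysis was possible because the tables hold one comparison per cell type and no value per library. Leaving out a replicate was not run for the same reason. Depth per library is not known, and the SE of NPC rows limits that table.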
